A study of Mus musculus with 8 samples.

Results

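Regions of chromatin open mainly at day 7 were selected from ATAC-seq counts of conventional type 1 dendritic cells (cDC1s) taken from B16-OVA tumours. 479 of 128057 regions (0.374%) met the selection rule. A region was kept when its mean was below 2 CPM (the region's count per 1000000 counts of that library in all regions) at day 21 and at least 4 CPM at day 7, and when every day 7 library lay above every day 21 library. Because the choice rested on the difference between the days, that difference is described and not tested in these regions. B16-OVA is a mouse melanoma line engineered to make ovalbumin, which serves as a traceable antigen, and the cDC1s were sorted from such tumours in wild-type mice. The tumours of 4 libraries were taken 7 days after inoculation, those of the other 4 after 21 days. All 8 libraries share the genotype, the tumour line and the cell sort, and no untreated or tumour-free group was analysed here. Separate mice or tumours behind the libraries of 1 day are not stated, so every p value measures the spread between these libraries, which may be technical.

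In ATAC-seq a transposase cuts DNA that is free of nucleosomes, so counts are high at active promoters and enhancers. Enhancers lie away from gene starts, often in introns or between genes, and much of the difference between states of one cell type is written in them. cDC1s capture dead cells and present their antigens to CD8 T cells; when they mature they raise a programme of migration, T cell stimulation and immune regulation that includes Ccr7, Fscn1, Il4i1, Stat4 and Cd200. In a bulk library, fewer cells of a state and less open chromatin in each cell cannot be told apart.

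10 of the 479 regions (2.09%) overlapped 1 of the 32817 RefSeq promoter windows (GRCm38.p6, 300 bases each), against 8.77% of all regions. They covered all or part of 12 windows, and 4 are shown because they let the open sequence be seen beside a gene of interest. The first lies before the start of Il4i1 (chr7:44836038-44836287, plus strand), an enzyme that breaks down phenylalanine and is made by mature dendritic cells; capitals mark an E-box and a PU.1 motif, both in reverse complement. The second lies before the start of the non-coding gene Gm10851 (chr2:11521392-11521641, plus strand), inside Pfkfb3; capitals mark a RUNX motif and an NF-kB motif, the latter in reverse complement. The third is before an internal start of Il1rn, the interleukin 1 receptor antagonist (chr2:24345072-24345290, plus strand), with no motif searched for. The fourth is before a start of Ccdc33 (chr9:58102298-58102534, minus strand), with an AP-1 motif in capitals. The third begins and the fourth ends, on the plus strand, at the edge of the open region.
Il4i1: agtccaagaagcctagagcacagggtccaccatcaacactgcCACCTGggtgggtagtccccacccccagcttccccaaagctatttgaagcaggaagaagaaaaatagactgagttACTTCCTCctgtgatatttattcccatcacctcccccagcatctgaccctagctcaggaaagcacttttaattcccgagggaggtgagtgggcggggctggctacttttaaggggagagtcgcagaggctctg
Gm10851: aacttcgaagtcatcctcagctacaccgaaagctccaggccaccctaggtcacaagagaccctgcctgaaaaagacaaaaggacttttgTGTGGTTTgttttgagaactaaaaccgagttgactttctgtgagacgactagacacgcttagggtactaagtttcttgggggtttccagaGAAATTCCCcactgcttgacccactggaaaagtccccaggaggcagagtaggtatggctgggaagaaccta
Il1rn: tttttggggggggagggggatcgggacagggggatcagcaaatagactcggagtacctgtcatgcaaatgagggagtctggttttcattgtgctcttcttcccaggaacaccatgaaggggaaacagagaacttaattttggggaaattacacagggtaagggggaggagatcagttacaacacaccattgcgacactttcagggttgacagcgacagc
Ccdc33: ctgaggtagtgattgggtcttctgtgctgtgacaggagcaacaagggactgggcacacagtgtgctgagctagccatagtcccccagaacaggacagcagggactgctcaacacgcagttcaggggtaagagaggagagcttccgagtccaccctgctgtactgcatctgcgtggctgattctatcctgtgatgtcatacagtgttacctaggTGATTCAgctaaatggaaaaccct
The motifs were searched on both strands over the full windows. AP-1 (TGANTCA) stood in 2 of the 12 windows, both of Ccdc33 and sharing sequence, and in 7.81% of all promoters. PU.1 (GAGGAAGT) stood in 1 of 12 and 3.20%, IRF (GAAANNGAA) in 1 and 8.55%, RUNX (TGTGGTTT) in 1 and 1.78%, and E-box (CAGGTG) in 2 and 20.2%. For NF-kB, GGGANTTTC stood in 1 of 12 and 1.11% and GGAANTTCC in none and 0.926%; CRE (TGACGTCA, 1.79%) and STAT (TTCCNGGAA, 1.15%) stood in none. A match is a run of letters and not a measured binding site.

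A day 21 mean below 2 CPM was common, at 47922 of the 128057 regions, and the 479 were those of them that also met the limits set by day 7. Mean day 7 levels ran from 4.00 to 12.3 CPM with a median of 4.88, and mean day 21 levels from 0.220 to 2.00 CPM with a median of 1.47. 259 regions stayed below 5 CPM at day 7 and 18 reached at least 8 CPM. On the log2 scale the fitted difference, day 21 over day 7, ran from −4.40 to −1.0 with a median of −1.88. It was at least 4-fold in 202 regions and at least 8-fold in 9. The counts behind these values are small: the lowest count of a region in a day 7 library ran from 24 to 120 (median 44), and the highest in a day 21 library from 6 to 91 (median 40). The median coefficient of variation between libraries was 19.2% at day 7 and 38.5% at day 21.

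The thresholds cut through a continuum. 488 regions met both CPM limits and 9 of them were lost to overlap between libraries. Every day 7 library lay above every day 21 library in 9.94% of all regions and in 13.7% of the 54029 regions with at least 4 CPM at day 7. Just inside the day 7 limit, at 4.00 CPM each, lay regions of Apobec1, Cc2d2a and Nlrp6, and just outside it, also at 4.00 CPM after rounding, lay regions of Zfp128, Tcp11 and Rassf2. Just inside the day 21 limit lay regions of Bdh2 (2.00 CPM), Vwa5a (2.00 CPM) and Runx3 (1.99 CPM), and just outside it those of Eps8 (2.00 CPM), Nuak1 (2.00 CPM) and Foxn3 (2.01 CPM). The mirrored rule, which asks for regions open mainly at day 21, found 107 regions.

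1 library was the highest of its day in most of the 479 regions. The median over the 479 regions was 5.05, 5.19, 5.18 and 4.73 CPM in day 7 replicates 1 to 4, and 2.00, 1.07, 1.27 and 1.33 CPM in day 21 replicates 1 to 4. Day 21 replicate 1 was the highest library of its day in 332 of the 479 regions, whereas replicates 2, 3 and 4 were the highest in 21, 63 and 63. It lay in the same direction outside the selection: in regions called lower at day 21 without its data, its level was above the mean of the other day 21 libraries in 75.3%, by a median of 0.20 on the log2 scale. Its total count, 14021151, was the lowest of day 21 (up to 27737040), while day 7 totals ran from 9440223 to 16063736. Without it 576 regions met the rule, and 471 of these were among the 479. Nothing in the labels sets its cells, its tumour or its preparation apart from the others of day 21.

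The rule was also applied with each library left out, which gives levels in a library that played no part in the choice. When it was applied to 7 libraries, the 483, 498, 487 and 511 regions chosen without day 7 replicates 1 to 4 had medians of 4.88, 4.77, 4.93 and 4.48 CPM in the library left out. Day 7 replicate 4 was thus lower than the medians of the other day 7 libraries in its own selection, 5.01 to 5.08 CPM. The 576, 427, 455 and 489 regions chosen without day 21 replicates 1 to 4 had medians of 2.14, 1.07, 1.27 and 1.37 CPM in the library left out. Day 21 replicate 1 was again the highest of its day, above medians of 1.13 to 1.42 CPM in the other day 21 libraries over the same regions. The plot of the regions by library shows day 7 replicate 4 as the lowest and day 21 replicate 1 as the highest of their days.

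**Figure D1:**
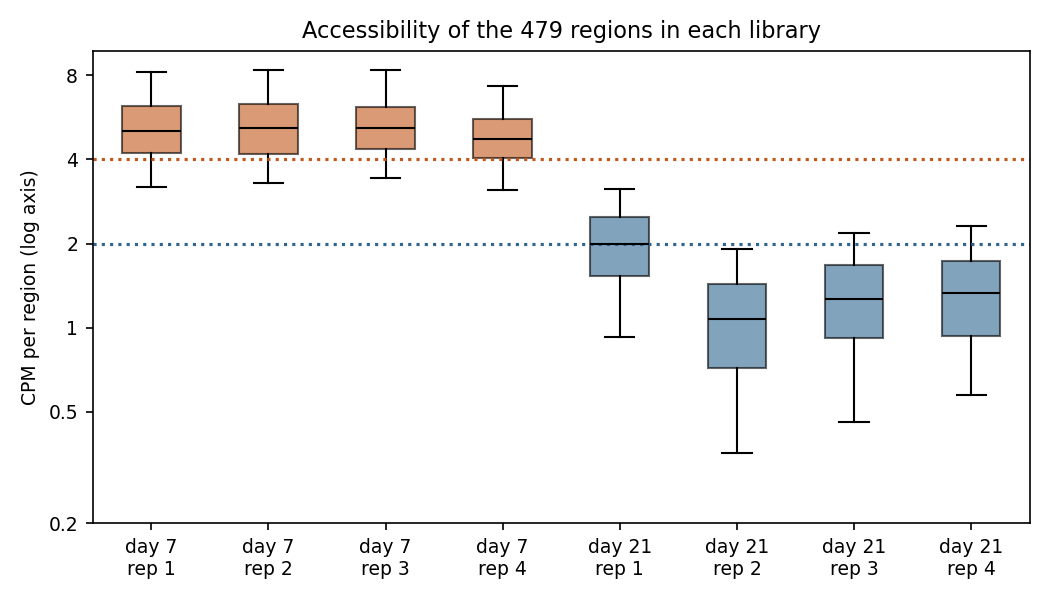
CPM of the 479 regions in each library (log axis); boxes span the quartiles, lines are medians, whiskers reach the 5th and 95th percentiles, and dotted lines mark the limits of 4 CPM (day 7) and 2 CPM (day 21). The separation of the days was required by the rule, while the median of 2.00 CPM in day 21 replicate 1 against 1.07 to 1.33 CPM in the other day 21 libraries was not.

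The sorted population was checked at the ends of marker genes. 19 of 20 cDC1 identity genes had a region at an end, and their summed level was 779 to 811 CPM at day 7 and 799 to 849 CPM at day 21. The summed level of 28 maturation genes, 2 of the 479 regions included, was 924 to 980 CPM at day 7 and 770 to 836 CPM at day 21, with day 21 replicate 1 the highest of its day (exact permutation test, two-sided, p = 0.0286, the smallest that 4 against 4 libraries allow, adjusted p = 0.0714 over 10 lists). Neither list was uniform. The mean per gene was lower at day 21 in 20 of the 28 maturation genes and higher in 8. Among the 19 cDC1 genes it was lower in 7 and higher in 12. T and NK cell markers summed to 151 to 173 CPM at day 7 and 142 to 153 CPM at day 21 (exact permutation p = 0.0571, adjusted p = 0.0816). Over all regions assigned to the genes, not only at their ends, the sums of 5 lists did not overlap between the days (exact permutation p = 0.0286, adjusted p = 0.0571 each). They were lower at day 21 for T and NK cells (846 to 899 and 715 to 759 CPM), maturation genes (4040 to 4180 and 3527 to 3793 CPM) and pDC (875 to 915 and 809 to 850 CPM), and higher for cDC1 identity (4488 to 4676 and 5001 to 5165 CPM) and melanoma genes (574 to 599 and 624 to 633 CPM). The maturation sum held 13 of the 479 regions and the cDC1 sum 1, so values that the rule used entered both tests. The T and NK cell, pDC and melanoma sums held none of them. Of the 24 T and NK cell genes, 20 had a region at an end, and their summed level per gene had a lower mean at day 21 in 16 and a higher mean in 4. Lck, Lef1, Ncr1 and Trac had none. Among the others, Cd3d (25.4 and 23.3 CPM), Cd5 (29.5 and 23.7 CPM) and Cd247 (27.1 and 29.9 CPM) were the most open, Cd3e (1.08 and 0.971 CPM), Cd3g (0.828 and 0.253 CPM) and Bcl11b (2.13 and 0.582 CPM) were among the low ones, Klrb1c had a higher mean at day 21 (14.0 and 20.1 CPM), and Tbx21 was level (10.94 and 11.03 CPM). Of the other lists, macrophage (239 to 248 and 249 to 270 CPM), cDC2 (167 to 173 and 174 to 194 CPM) and pDC (141 to 155 and 121 to 133 CPM) sums did not overlap between the days (exact permutation p = 0.0286, adjusted p = 0.0714 each). By gene, the mean was lower at day 21 in 10 macrophage genes and higher in 10, and lower in 4 cDC2 genes and higher in 6. Only 4 of 11 pDC genes had a region at an end, with a lower mean in 3 and a higher mean in 1, Siglech (10.9 and 13.5 CPM). Klf4 held the largest part of the cDC2 sum (86.3 and 99.1 CPM) and Lag3 that of the pDC sum (71.9 and 60.2 CPM). B cell (96.7 to 104 and 100 to 106 CPM), neutrophil (21.7 to 27.7 and 21.9 to 26.9 CPM), melanoma (196 to 208 and 198 to 208 CPM) and stromal (73.8 to 77.3 and 72.0 to 79.5 CPM) sums at gene ends overlapped between days. No list passed an adjusted p of 0.05. Even 5 lists at the smallest possible p had an adjusted p of 0.0571, so passing was hardly within reach. Not passing therefore does not show that a list was level between the days. The part of other cells in the 479 regions was not tested.

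Regions open mainly at day 7 lay away from gene ends. Only 30 of them (6.26%) fell within 1000 bp of either end of a protein-coding gene, compared with 14.0% of all regions and 23.8% of those with at least 4 CPM at day 7. Gene bodies held 220 (45.9%), and 228 (47.6%) were intergenic, compared with 47.2% and 38.8% of all regions. 1 region was on an unplaced contig. The median distance from a region's centre to the nearest gene end was 20.2 kb, against 14.9 kb over all regions and 9.48 kb over those with at least 4 CPM at day 7. 21 regions (4.39%) were centred within 1 kb of an annotated start site, against 11.7% and 20.8%, and 58 (12.1%) lay more than 100 kb from any gene end, against 10.9% and 7.98%.

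The 107 regions open mainly at day 21 stood 4.67% at gene ends, 48.6% in gene bodies and 46.7% between genes, at a median of 22.7 kb from a gene end. None of them was centred within 1 kb of an annotated start site, and 18.7% lay more than 100 kb from any gene end. Both sets had to have a mean below 2 CPM at one of the days, and how far that limit sets the share at gene ends was not tested. Levels at day 7 had medians of 5.13 CPM at gene ends, 4.85 CPM in gene bodies and 4.86 CPM between genes. The limits of the rule hold these levels close together, so the medians do not tell how levels differ by place. Spans ran from 175 to 1217 bp with a median of 433 bp, between the medians of all regions (364 bp) and of those with at least 4 CPM at day 7 (539 bp). The X chromosome held 3 of the 479 regions among its 3224 regions, or 0.931 per 1000 against 3.74 per 1000 over the genome, and chromosome 17 the most, at 5.09 per 1000.

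**Figure D2:**
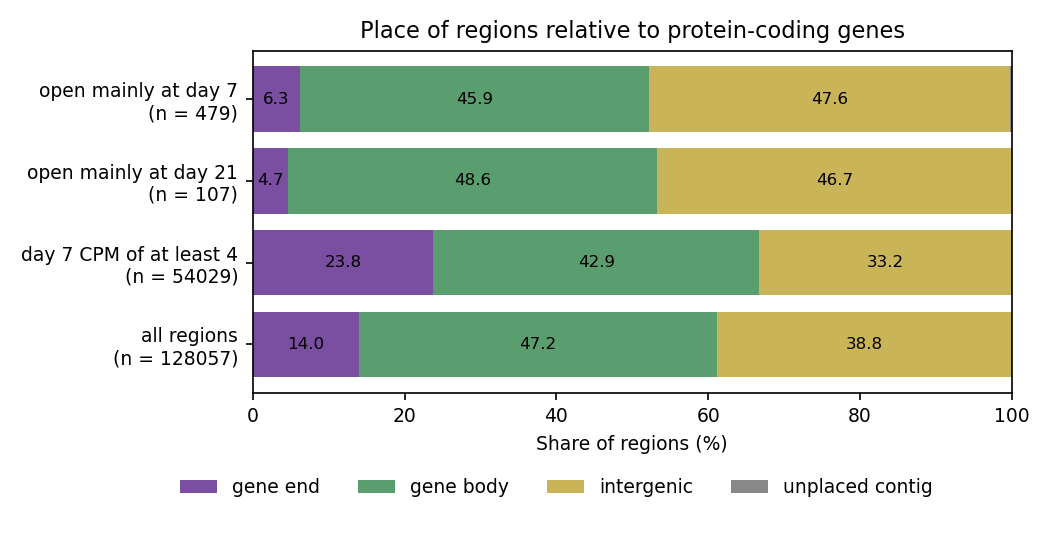
Share (%) of regions at gene ends (within 1000 bp of either end of a protein-coding gene), in gene bodies, between genes and on unplaced contigs, for 4 sets of regions. The regions open mainly at day 7 and those open mainly at day 21 have 6.26% and 4.67% at gene ends, against 14.0% of all regions.

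Of the 479 regions, 67 (14.0%) had another of them within 10 kb, and these formed 31 clusters. The mirrored set had 10 of 107 (9.35%) in 5 clusters. All regions together, of which the 479 are 0.374%, are far denser, and 87.4% of them had another within 10 kb. Such a share rises with the number of regions in a set. It therefore does not tell whether the 479 lie closer together than their number alone would give, which was not tested. Clusters of more than 2 regions lay, among others, at Tnfrsf4 and Tnfrsf18 on chromosome 4 (4 regions), before Sh2d4a on chromosome 8 (3) and about 100 kb from Cdc42ep3, a partner of the GTPase Cdc42, on chromosome 17 (3).

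The regions were assigned to 408 protein-coding genes, 2.40% of the 16992 genes that had any region. 351 genes had 1 region, 45 had 2, 11 had 3 and Il2ra had 4. Those with 3 included Stat4, Rad51b, Dscaml1, Sh2d4a, Cdc42ep3, Cited2, Atxn1, Chd7 and 1700016C15Rik. A long gene or a gene in a sparse part of the genome collects more regions: Cited2 had 115 regions in all and Rad51b 78, whereas Il2ra had 17 and Sh2d4a 6. Assignment is by position and does not show which gene a region acts on.

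Regions near the 479 were lower at day 21 in a larger share than all tested regions. Of 1312 tested regions that did not meet the rule but lay within 10 kb of one that did, 386 (29.4%) were lower at day 21 and 66 (5.03%) higher at an adjusted p below 0.05 (edgeR quasi-likelihood test), against 9.86% lower and 9.5% higher over all regions tested. Their median log2 fold change was −0.25, against 0.00 over all regions outside the rule. The share that was lower declined with distance, from 50.3% within 1 kb to 30.0% at 1 to 5 kb, 22.9% at 5 to 10 kb, 17.5% at 10 to 25 kb, 15.6% at 25 to 50 kb and 11.7% at 50 to 100 kb. Within 1 kb a neighbour may be a shoulder of the same open stretch, and over 1 kb away, still within 10 kb, 300 of 1141 (26.3%) were lower. Around the 107 regions open mainly at day 21 the counts ran the other way, with 5 lower and 106 higher of 231. 428 of the 479 regions had a tested neighbour within 10 kb outside the rule, and at 267 of these at least 1 neighbour was lower.

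**Figure D3:**
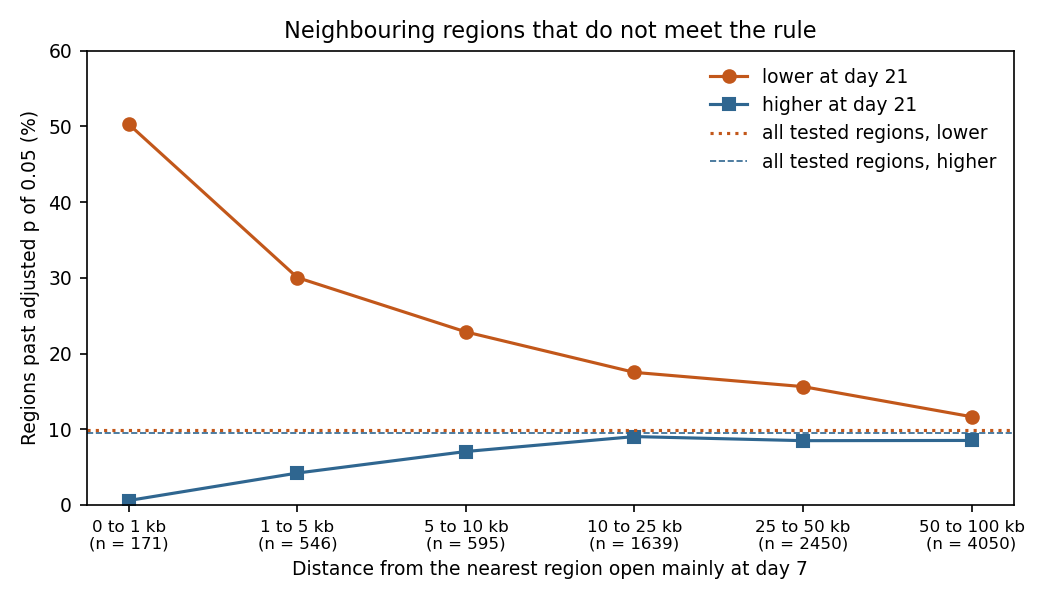
Share (%) of tested regions outside the rule that passed an adjusted p of 0.05 as lower (circles) or higher (squares) at day 21, by distance from the nearest region open mainly at day 7; the dotted and dashed lines give the shares over all tested regions. The lower share falls from 50.3% within 1 kb to 11.7% at 50 to 100 kb, near the 9.86% over all regions.

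At the ends of the assigned genes the difference from other genes was smaller. Of 540 tested regions at those ends that did not meet the rule, 127 (23.5%) were lower at day 21 and 47 (8.70%) higher, against 16.6% and 6.63% of all gene-end regions tested. The median was −0.10, against −0.07 over all gene ends. Most of these end regions did not pass the test in either direction.

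The most open of the regions at day 7 were headed by 1 at an end of Cxcr5, the receptor that draws cells toward the chemokine CXCL13 in lymphoid follicles. This region (chr9:44526402-44527073) held 10.1, 12.9, 13.7 and 12.6 CPM in the day 7 libraries and 1.71, 1.49, 2.71 and 1.91 CPM in the day 21 libraries. All 4 day 7 libraries stood far above the highest day 21 library, with a fitted log2 fold change of −2.65 ± 0.18 (SE). The region at the far end of Cxcr5, shared with Bcl9l, had 2.96 ± 0.91 and 2.70 ± 0.83 CPM (SD, n = 4) and did not pass (log2 fold change −0.10 ± 0.26, edgeR adjusted p = 0.842). So the 2 ends of the gene had different values, and of its 12 tested regions outside the rule 2 were lower and 1 higher.

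Next came a region of Rad51b, which takes part in the repair of DNA breaks, inside the gene and 248 kb from its nearer end (chr12:79600137-79600735). It held 14.1, 9.53, 12.5 and 10.6 CPM at day 7 and 3.14, 1.43, 1.5 and 1.88 CPM at day 21. A further pair of regions in the gene went from 6.62 ± 1.49 to 1.14 ± 0.77 CPM and from 4.60 ± 1.57 to 1.54 ± 0.35 CPM (SD, n = 4). The 72 tested regions of Rad51b outside the rule were split, with 7 lower and 8 higher. Its end regions did not pass (edgeR adjusted p = 0.324 and 0.210). The 3 sites thus lay in a gene whose other regions moved both ways or did not pass.

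Rassf2, which encodes a Ras-association domain protein, had a region in its body (chr2:132012707-132013416) at 9.84, 13.7, 10.5 and 9.09 CPM at day 7 and 3.00, 0.716, 1.04 and 1.98 CPM at day 21. Of 3 regions at its ends, 1 was higher at day 21 (log2 fold change 0.47 ± 0.10, edgeR adjusted p = 0.000436), 1 lower (−0.64 ± 0.09, edgeR adjusted p = 3.2e-07) and 1 did not pass (edgeR adjusted p = 0.0724). Inpp5b, an inositol polyphosphate 5-phosphatase, had a region (chr4:124795198-124795727) at 12.7, 9.96, 10.5 and 9.34 CPM at day 7 and 1.85, 0.477, 0.231 and 1.88 CPM at day 21. This was among both the most open and the most changed of the regions (log2 fold change −3.19 ± 0.25), although day 21 replicates 1 and 4 lay well above replicates 2 and 3. The nearer end of Inpp5b, 6.05 kb away and shared with Mtf1, was slightly lower at day 21 (59.96 ± 4.93 and 52.6 ± 2.28 CPM, SD, n = 4; log2 fold change −0.19 ± 0.07, edgeR adjusted p = 0.0461). That call was lost without any 1 of 5 libraries, day 7 replicates 2, 3 and 4 and day 21 replicates 1 and 4 (edgeR adjusted p up to 0.149), with trended offsets, with DESeq2 and without the filter. The far end of Inpp5b was lower as well, at 12.1 ± 1.10 and 6.49 ± 0.39 CPM (SD, n = 4; log2 fold change −0.90 ± 0.14, edgeR adjusted p = 9.57e-07).

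Mreg, melanoregulin, which takes part in the transport of melanosomes and lysosomes, had a region in its body (chr1:72202974-72203682) at 10.9, 10.4, 11.4 and 9.09 CPM at day 7. At day 21 it ranged widely, at 3.42, 0.119, 2.13 and 1.69 CPM, with replicate 1 highest and replicate 2 almost without counts. The end of Mreg fell too (10.3 ± 2.21 CPM at day 7 and 5.38 ± 1.04 CPM at day 21, SD, n = 4; log2 fold change −0.93 ± 0.16, edgeR adjusted p = 1.01e-05), and 7 of 22 tested regions of the gene outside the rule were lower and none higher.

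Pfkfb3 makes fructose 2,6-bisphosphate, an activator of glycolysis. Its more open region (chr2:11521342-11522027), the one that holds the printed Gm10851 promoter with the RUNX and NF-kB letters, stood at 9.09, 10.5, 8.36 and 9.4 CPM at day 7 and 2.14, 1.31, 1.85 and 1.80 CPM at day 21. The region at the end of Pfkfb3 went the other way (34.9 ± 2.83 CPM at day 7, 41.1 ± 1.10 CPM at day 21, SD, n = 4; log2 fold change 0.24 ± 0.08, edgeR adjusted p = 0.0190). That call was lost without any 1 of 5 libraries, day 7 replicates 1, 2 and 3 and day 21 replicates 3 and 4 (edgeR adjusted p up to 0.0611).

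Slc7a11, the cystine-glutamate exchanger, lay 8.95 kb from a region (chr3:50507639-50508432) at 9.34, 12.1, 8.36 and 8.84 CPM at day 7 and 2.85, 1.07, 1.44 and 1.30 CPM at day 21. Of 38 tested regions assigned to Slc7a11 outside the rule, 5 were lower and 9 higher. Klf6, a zinc finger transcription factor, was the nearest gene to a region 289 kb away (chr13:6159406-6160012) at 10.3, 11.9, 11.9 and 8.22 CPM at day 7 and 2.43, 1.19, 1.61 and 2.45 CPM at day 21. Of 3 end regions of Klf6, 2 did not pass (edgeR adjusted p = 0.492 and 0.277) and 1 was higher at day 21 (15.4 ± 2.13 and 33.6 ± 3.67 CPM, SD, n = 4; log2 fold change 1.12 ± 0.10, edgeR adjusted p = 4.62e-14), and 26 of its 102 tested regions outside the rule were lower and 7 higher. Vsig10, an immunoglobulin-domain membrane protein, had a region at its end at 9.22 ± 2.02 and 1.92 ± 0.86 CPM, and Zfat, a zinc finger protein, lay 369 kb from a region at 8.89 ± 1.88 and 1.53 ± 1.00 CPM (SD, n = 4).

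**Figure D4:**
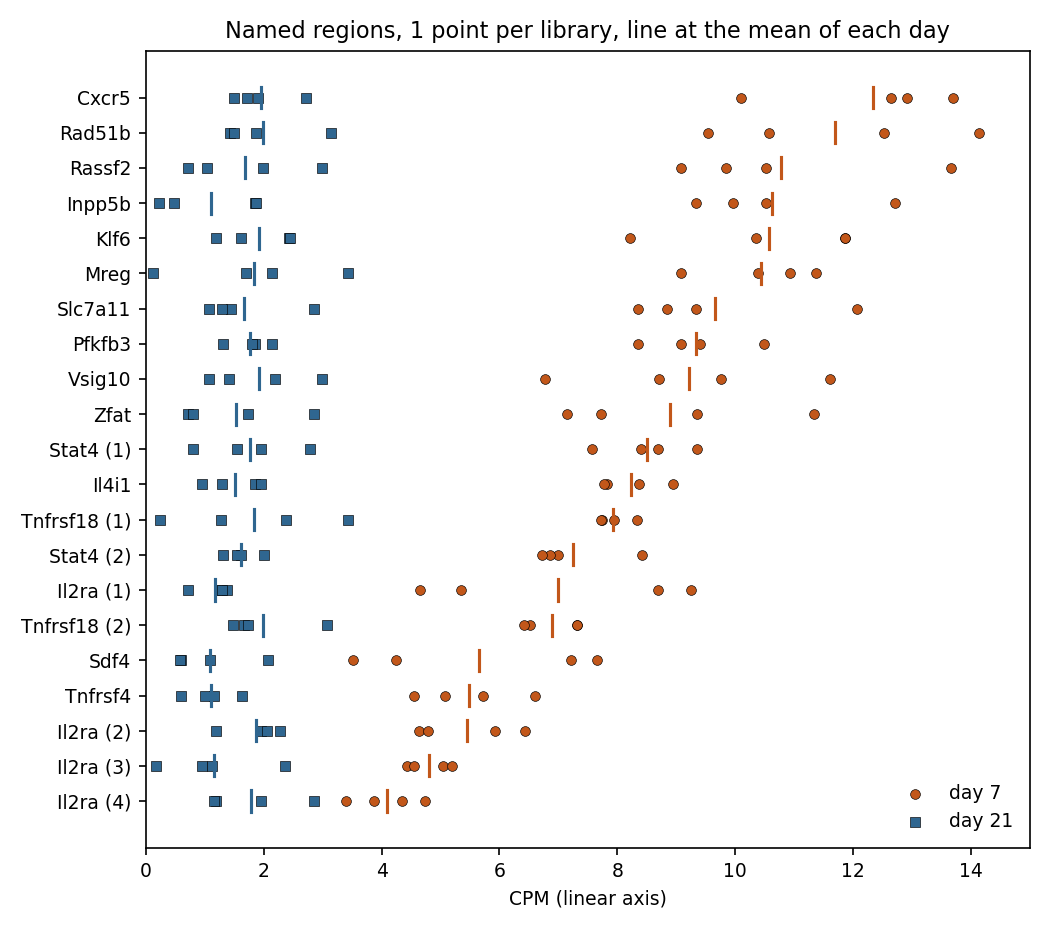
CPM (linear axis) of 21 named regions, 1 point per library, with a line at the mean of each day; names are assigned genes and numbers in brackets tell regions of 1 gene apart. The 10 most open regions at day 7 are at the top, and every day 7 library lies to the right of every day 21 library in each row, as the rule required.

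Of the 17 gene lists, that of dendritic cell maturation and migration held the largest share of the regions. 8 of the 30 genes (26.7%) had at least 1 region open mainly at day 7, against 2.40% of all genes with a region, and 13 of their 419 regions (3.10%) met the rule, against 0.373% over all genes. These genes were Stat4 (3 regions), Il4i1, Cd200 and Samsn1 (2 each), and Fscn1, Ccl22, Traf1 and Slco5a1 (1 each). Of their 400 tested regions outside the rule, 105 (26.3%) were lower at day 21 and 25 (6.25%) higher, against 9.48% and 9.54% of such regions over all protein-coding genes. Without day 21 replicate 1 the list had 19 such regions at 9 genes. The list was chosen with earlier results of these data known, so its count is not independent evidence.

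Stat4, the transcription factor that interleukin 12 activates, had 3 regions in its gene body. The first (chr1:51996904-51997502) held 7.57, 8.69, 9.36 and 8.40 CPM at day 7 and 2.78, 1.55, 1.96 and 0.793 CPM at day 21. The second (chr1:52040363-52041014) held 6.82, 6.99, 7.19 and 7.84 CPM, then 1.57, 1.19, 0.807 and 1.41 CPM. The third (chr1:52066276-52066923) held 8.41, 6.99, 6.85 and 6.72 CPM, then 2.00, 1.31, 1.61 and 1.55 CPM. In the third, day 7 replicate 1 stood above the other day 7 libraries. The fitted log2 fold changes of the 3 were −2.34, −2.53 and −2.17. Lower values were spread over the locus: 14 of the 25 other tested regions of Stat4 were lower at day 21, none was higher, and their median was −0.91. No region lay within 1000 bp of an end of Stat4.

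Il4i1 was the opposite case, with the change at the gene's start. The region that contains the printed sequence with the PU.1 and E-box letters (chr7:44836014-44836362) held 7.83, 8.37, 8.94 and 7.78 CPM at day 7 and 1.85, 0.955, 1.96 and 1.30 CPM at day 21. A second region close by stood at 5.42 ± 0.93 and 1.96 ± 0.33 CPM (SD, n = 4). Just before them, a region outside the rule was at 9.89 ± 2.29 CPM, then 2.69 ± 0.68 CPM (SD, n = 4), and was called lower (log2 fold change −1.87 ± 0.19, edgeR adjusted p = 8.23e-12). At the far end of the gene, shared with Il4i1b and Tbc1d17, 1 region did not pass (0.08 ± 0.14, edgeR adjusted p = 0.767) and 1 was slightly higher (0.28 ± 0.10, edgeR adjusted p = 0.0428). That last call was lost without any 1 of 6 libraries (edgeR adjusted p up to 0.178): day 7 replicates 1, 2 and 4 and day 21 replicates 2, 3 and 4.

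Fscn1, which bundles actin in the dendrites of mature cells, had a region 10.6 kb from its end (chr5:142949541-142949929) at 4.88, 3.81, 5.85 and 4.36 CPM at day 7 and 1.28, 0.955, 0.115 and 0.793 CPM at day 21. Both regions at its near end fell as well. One had 9.15 ± 1.82 CPM at day 7 and 2.06 ± 0.99 CPM at day 21 (SD, n = 4; log2 fold change −2.13 ± 0.21, edgeR adjusted p = 4.97e-12), and the other 4.94 ± 2.56 and 2.05 ± 0.26 CPM (−1.24 ± 0.25, edgeR adjusted p = 0.000153). In all, 5 of 8 other tested Fscn1 regions were lower and none higher, with a median of −1.05.

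Of the other maturation genes, Cd200, a ligand that restrains myeloid cells, had regions at 7.23 ± 0.86 and 5.40 ± 0.85 CPM at day 7 and 1.47 ± 0.58 and 1.54 ± 1.09 CPM at day 21 (SD, n = 4). Samsn1, an adaptor protein of immune cells, had regions at 5.95 ± 1.94 and 5.26 ± 0.53 CPM, then 1.29 ± 1.04 and 1.68 ± 1.01 CPM. In both Cd200 regions and both Samsn1 regions day 21 replicate 1 was the highest of its day. Traf1, an adaptor of TNF receptors, had a region at 5.80 ± 0.95 and 1.67 ± 0.65 CPM, yet its end did not pass (0.13 ± 0.11, edgeR adjusted p = 0.479). Slco5a1, a transporter, had 1 at 4.14 ± 0.55 and 1.03 ± 0.80 CPM. Ccl22, a chemokine for CCR4-bearing T cells, had the weakest contrast of the list, 4.08 ± 0.65 and 1.95 ± 0.96 CPM, with day 21 replicate 1 at 3.35 CPM, nearly level with day 7 replicate 1 at 3.37 CPM.

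**Figure D5:**
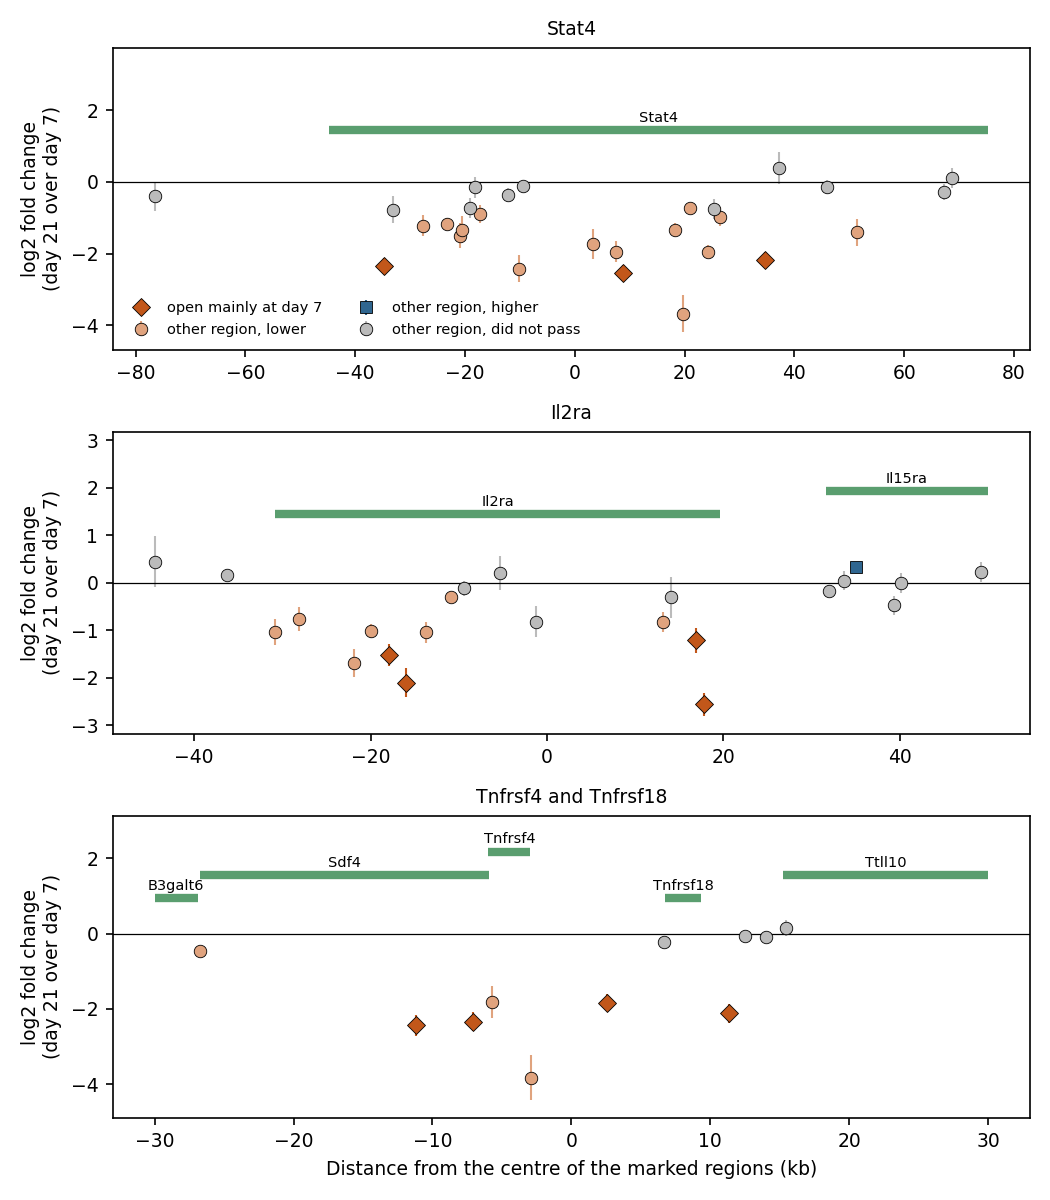
Log2 fold change (day 21 over day 7, bars are SE) of every tested region around Stat4, Il2ra and the Tnfrsf4 and Tnfrsf18 cluster, by distance (kb) from the centre of the regions open mainly at day 7 (diamonds); green bars are gene bodies. Circles are other regions, filled orange where lower at an adjusted p below 0.05: 14 of 25 at Stat4, 7 of 19 at Il2ra (where 1, a square, was higher) and 3 of 7 at the cluster.

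Genes of cytokines and their receptors held 9 of the regions, at 4 of 32 genes. These were 9 of the list's 372 regions (2.42%), against 0.373% over all genes. Of its 353 tested regions outside the rule, 54 (15.3%) were lower at day 21 and 43 (12.2%) higher, against 9.48% and 9.54% over all genes. Their median log2 fold change was −0.01, so the list as a whole moved both ways. Il2ra, the alpha chain of the interleukin 2 receptor, had 4, more than any other gene. The most open (chr2:11691152-11691634) held 9.26, 4.66, 8.69 and 5.35 CPM at day 7 and 1.28, 0.716, 1.38 and 1.30 CPM at day 21, so the day 7 libraries were split into 2 high and 2 low. The region beside it (chr2:11690259-11690635) was at 3.87, 3.39, 4.35 and 4.73 CPM, then 2.85, 1.19, 1.15 and 1.95 CPM. A second pair, near the other end of the gene, stood at 5.45 ± 0.88 and 1.87 ± 0.47 CPM (chr2:11655512-11655881) and at 4.80 ± 0.37 and 1.15 ± 0.90 CPM (chr2:11657430-11657682; SD, n = 4). Outside the rule, 7 of 13 tested Il2ra regions were lower and none higher, with a median of −0.76, and the end region fell (3.64 ± 1.20 CPM at day 7, 1.80 ± 0.65 CPM at day 21; log2 fold change −1.04 ± 0.27, edgeR adjusted p = 0.00297). In the plot of the loci the regions at neighbouring Il15ra ran from −0.48 to 0.33 on the log2 scale, and 1 of them passed, as higher (edgeR adjusted p = 0.0367).

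Il2ra, Stat4, Il21r, Tnfrsf4 and Tnfrsf18 are also used by T and NK cells. T and NK cell marker genes had none of the 479 regions among their 231, but 51 of 186 tested regions of theirs (27.4%) were lower at day 21 and 6 (3.23%) higher, with a median of −0.34, against 9.48% and 9.54% over all genes. Regions nearest Icos (73.5 kb away, 4.06 ± 0.49 and 0.867 ± 0.278 CPM) and Pdcd1 (22.3 kb away, 4.25 ± 0.76 and 1.43 ± 0.30 CPM; SD, n = 4) also met the rule. The part of T and NK cells in the values of any of these genes was not tested.

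Il21r, the interleukin 21 receptor, had regions at 6.75 ± 0.79 and 4.21 ± 1.25 CPM at day 7 and 1.9 ± 0.42 and 0.909 ± 0.301 CPM at day 21 (SD, n = 4). Its end was also lower, at 14.7 ± 2.17 and 6.61 ± 1.01 CPM (log2 fold change −1.15 ± 0.14, edgeR adjusted p = 1.46e-09). Il1rn, which blocks the interleukin 1 receptor, had 1 region 1.40 kb from its end at 5.92 ± 1.41 and 1.62 ± 0.35 CPM and 1 at the internal start whose sequence is printed, at 6.48, 3.39, 6.02 and 4.48 CPM, then 2.21, 0.955, 0.692 and 0.865 CPM. Il1r2, the decoy receptor for interleukin 1, had 1 at 4.04 ± 1.10 and 1.41 ± 0.65 CPM. Of 4 other tested Il1rn regions, 2 were lower and none higher.

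The largest cluster spanned the TNF receptor genes Tnfrsf4 (OX40) and Tnfrsf18 (GITR) and the end of Sdf4, a calcium-binding protein. From the Sdf4 side, its first region (chr4:156008025-156008736) held 7.66, 4.24, 3.51 and 7.22 CPM at day 7 and 2.07, 0.597, 0.577 and 1.08 CPM at day 21. The second (chr4:156012282-156012635), at the ends of Sdf4 and Tnfrsf4, held 4.54, 5.09, 6.60 and 5.73 CPM, then 1.64, 0.597, 1.15 and 1.01 CPM. Both receptors pass survival signals to T cells, and the next regions lie on either side of Tnfrsf18. The third (chr4:156021647-156022609) held 7.32, 7.31, 6.52 and 6.41 CPM, then 3.07, 1.67, 1.73 and 1.48 CPM. The fourth (chr4:156030653-156031106) held 8.33, 7.73, 7.94 and 7.72 CPM, then 3.42, 0.239, 1.27 and 2.38 CPM. In each, day 21 replicate 1 was the highest of its day.

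A pair of weakly open regions at the ends of Tnfrsf4 fell too. The weaker had 1.7 ± 0.77 CPM at day 7 and 0.118 ± 0.061 CPM at day 21 (SD, n = 4; log2 fold change −3.82 ± 0.59, edgeR adjusted p = 1.12e-06), and the other 1.86 ± 0.37 and 0.554 ± 0.401 CPM (−1.81 ± 0.43, edgeR adjusted p = 0.00116). The end of Tnfrsf18, between 2 regions of the cluster, stood at 9.62 ± 0.44 and 8.22 ± 0.96 CPM and did not pass (−0.22 ± 0.14, edgeR adjusted p = 0.281). Genes of NF-kB and TNF receptor signalling held 6 of the 479 regions at 4 of 25 genes, or 6 of the list's 327 regions (1.83%), against 0.373% over all genes. Beside Tnfrsf4 and Traf1 these were Traf3, an adaptor that restrains the non-canonical pathway (4.71 ± 1.24 and 4.07 ± 0.65 CPM at day 7, 1.03 ± 1.03 and 1.03 ± 0.68 CPM at day 21), and Ikbkb, a kinase that releases NF-kB (5.81 ± 0.55 and 4.67 ± 1.44 CPM, then 1.31 ± 0.34 and 1.64 ± 0.26 CPM). No Ikbkb end region passed (edgeR adjusted p 0.343 to 0.814). Over the list, 61 of 309 tested regions outside the rule (19.7%) were lower and 33 (10.7%) higher, the latter near the 9.54% over all genes and the former above the 9.48%.

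The 10 regions with the most negative fold changes had day 7 means from 4.42 to 10.6 CPM. The region nearest Egfl6 on chromosome X, 206 kb from it (chrX:166791081-166791515), held 4.04, 4.45, 5.35 and 3.86 CPM at day 7 and 0.428, 0, 0.346 and 0.108 CPM at day 21, or 6, 0, 6 and 3 counts. Its log2 fold change of −4.40 ± 0.39 rests on those few counts. Regions assigned to Dlg2, a synaptic scaffold protein (−3.32 ± 0.28), Dpp10, a dipeptidyl peptidase-like protein (−3.28 ± 0.33), Anxa3, an annexin (−3.23 ± 0.28), and Tuba1a, a tubulin (−3.17 ± 0.33), followed Egfl6 with Inpp5b. The Dlg2, Anxa3 and Tuba1a regions lay between genes, 44.5, 55.5 and 23.8 kb from the gene. The Dpp10 region lay inside the gene, 555 kb from its nearer end. The others were assigned to Csf2rb2, the mouse beta chain of the interleukin 3 receptor (−3.13 ± 0.31), Ercc3, a DNA repair helicase (−3.11 ± 0.26), Uhmk1, a kinase (−3.06 ± 0.29), and Rad21, a cohesin subunit (−2.98 ± 0.25). The Csf2rb2, Ercc3 and Uhmk1 regions lay between genes, 8.41, 1.39 and 5.80 kb from the gene, and the Rad21 region in the gene body. For Uhmk1 a second region close to the first was at 5.43 ± 0.52 and 0.852 ± 0.817 CPM.

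Other genes also had 3 regions. Sh2d4a, an SH2-domain adaptor, had 3 neighbouring regions at 6.94 ± 0.66, 4.60 ± 1.59 and 5.93 ± 0.74 CPM at day 7 and 1.63 ± 0.93, 1.55 ± 0.33 and 1.52 ± 0.18 CPM at day 21 (SD, n = 4). The Sh2d4a end, at 3.19 ± 0.71 and 2.86 ± 0.45 CPM, did not pass (edgeR adjusted p = 0.725). Dscaml1, a cell adhesion protein of neurons, had 3 in its body at 6.61 ± 0.44, 6.68 ± 1.47 and 7.50 ± 1.44 CPM, then 0.935 ± 0.755, 1.33 ± 0.36 and 1.45 ± 0.46 CPM. The Sh2d4a cluster lay between genes, 27.7 to 29.3 kb from that end.

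The widest regions were in Dcaf5 (1217 bp, 7.33 ± 1.40 and 1.67 ± 0.82 CPM), between genes near Sipa1l2 (1065 bp, 4.06 ± 0.62 and 1.17 ± 0.52 CPM), Otos (977 bp, 8.29 ± 1.70 and 1.97 ± 0.61 CPM) and Sp4 (974 bp, 4.92 ± 1.55 and 1.71 ± 0.69 CPM), and in Cacna1b (969 bp, 8.16 ± 2.35 and 1.82 ± 0.61 CPM; SD, n = 4). CPM was not divided by width, so levels of regions of different span are not comparable as densities.

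The other gene lists held few of the regions in number, and their shares are set against the 0.373% of regions over all genes. Chemokine receptors had 2 of 200 (1%), at Cxcr5 and 174 kb from Cxcr4 (4.10 ± 0.23 and 1.44 ± 0.52 CPM; SD, n = 4). Of 191 tested regions of chemokine receptors outside the rule, 29 (15.2%) were lower and 12 (6.28%) higher, against 9.48% and 9.54% over all genes. Interferon-stimulated genes had 1 of 116 (0.862%). Of their 111 tested regions outside the rule, 25 (22.5%) were lower and 2 (1.80%) higher. Genes of actin, adhesion and migration had 4 of 453 (0.883%), at Fscn1 and at 3 regulators of small GTPases: Arhgap31 (7.54 ± 1.12 and 1.89 ± 0.37 CPM), Dock10 (4.49 ± 0.85 and 1.93 ± 0.77 CPM) and Dock8 (4.28 ± 0.51 and 1.62 ± 0.54 CPM). Without day 21 replicate 1 that list had 9. Of its 438 tested regions outside the rule, 43 (9.82%) were lower and 59 (13.5%) higher.

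Oxidative phosphorylation genes had 2 of 107 regions (1.87%), 4.75 kb from Ndufs1, a subunit of complex I (4.64 ± 0.73 and 0.860 ± 0.376 CPM), and 30.2 kb from Cox4i1, a subunit of complex IV (4.16 ± 0.76 and 0.901 ± 0.377 CPM; SD, n = 4). Of their 103 other tested regions 17 (16.5%) were lower and 3 (2.91%) higher. Mitochondrial dynamics genes had none of 187. cDC1 identity genes had 1 of 563 (0.178%), 136 kb from Bcl6, a repressor needed in cDC1s (4.08 ± 0.69 and 1.98 ± 0.48 CPM, close to the day 21 limit), and 39 of their 543 tested regions outside the rule (7.18%) were lower and 114 (21.0%) higher. B cell, macrophage, cDC2, pDC, neutrophil and melanoma lists had none, and the stromal list had 1, 140 kb from Dcn (4.45 ± 0.64 and 1.07 ± 0.48 CPM). Without day 21 replicate 1 the cDC1 and stromal lists had 2 each.

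Some further immune genes were assigned regions but stand in no list and were picked after their values were seen. Cd70, the TNF-family ligand of CD27 on T cells, had 2 regions, 1 at its end (4.35 ± 0.09 and 1.53 ± 0.51 CPM) and 1 at 4.78 ± 1.09 and 0.706 ± 0.243 CPM (SD, n = 4). Tnfsf14, the ligand LIGHT, lay nearby with a region at its own end (4.10 ± 1.15 and 1.9 ± 0.14 CPM). Fasl, the death ligand, lay 123 kb from a region with a large contrast (6.02 ± 0.90 and 0.757 ± 0.351 CPM), and Slamf1, a receptor shared by lymphocytes and dendritic cells, 2.57 kb from another (4.29 ± 1.00 and 0.630 ± 0.250 CPM). Irf1, an interferon regulatory factor, lay 40.7 kb from a region at 7.16 ± 1.19 and 1.32 ± 0.46 CPM, and Serpinb9, an inhibitor of granzyme B, held 1 in its body at 6.91 ± 1.68 and 1.49 ± 0.31 CPM. Ptger4, a prostaglandin E2 receptor, was the nearest gene, 187 kb and 221 kb away, to regions at 6.65 ± 0.39 and 5.71 ± 0.75 CPM at day 7 and 1.99 ± 0.84 and 1.54 ± 0.36 CPM at day 21.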

How the data were processed

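The authors deposited raw counts of ATAC-seq signal in 128057 shared regions, 1 column for each of the 8 libraries. The submitters' processing notes list MACS2 2.1.0.20150603, bedtools, SAMtools, Picard 1.65 and cutadapt 1.9, and name mm10 and GRCm38 as builds. The aligner, the read filters, the merging of peaks, what was counted and any shift for the transposase are not given in the sources used here; a shift moves counts by a few bases. Groups and replicate numbers came from the labels. Library totals over the regions lay between 9440223 and 27737040 counts, so that 4 CPM is a small count, which limits the precision of each value.

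CPM values were counts over the column total, and the selection rule used these alone, so it picks regions near 2 thresholds in small counts. The fit over all regions used edgeR 4.0.16 in R 4.3.3 (filterByExpr, which kept 121865 regions, TMM factors, quasi-likelihood test with the day as the only term, Benjamini-Hochberg adjustment, threshold 0.05); all 479 regions stayed in it. Standard errors of log2 fold changes were worked back from that fit, as the size of the log2 fold change over the square root of the F statistic of the quasi-likelihood test. The script was tested on simulated counts. Sums over gene lists were set against all 70 relabelings of the libraries (exact permutation test, two-sided), with adjustment over 10 lists.

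Genes came from a RefSeq table of GRCm38.p6, the assembly of mm10, with 21887 placed protein-coding genes and no strand or exons, so windows of 1000 bp around both gene ends took the place of start sites. Regions were assigned to the gene at whose end or in whose body they lay, or else to the nearest gene end. Strand and start sites came from RefSeq promoter entries, found for 79.9% of the genes. Coordinates are as deposited. No label or header says whether they count from 0 or 1, so the clipped ends of printed sequences could be off by 1 base.

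Named regions were the 10 most open at day 7, the 10 with the largest fold change, the 5 widest, all regions of 6 genes with the most, the largest cluster, up to 3 per gene list, and the 3 nearest each threshold on either side. All further genes named were picked with their values in view, and a few that the rules chose are not reported here. The regions, the 17 gene lists and the rules were chosen with earlier results of these data known. Alternatives were other thresholds, scalings, windows, gaps, DESeq2 1.42.0, limma-voom (limma 3.58.1), the replicate number as a block and each library left out; 4 were added after seeing the data.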

Additional observations from a re-analysis of the deposited data

Results flagged for a closer look

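Among 144 groups of 4 libraries examined, 7 held 1 library far from the other 3 by Dixon's 95% limit; chance flags about 1 in 20 groups, which is about the number seen. 5 were regions open mainly at day 7. The third Stat4 region stood at 8.41 CPM in day 7 replicate 1, above 6.72 to 6.99 CPM in the other day 7 libraries. The most open Il2ra region stood at 0.716 CPM in day 21 replicate 2, below 1.28 to 1.38 CPM in the others. Day 21 replicate 1 stood high at the first Tnfrsf18 region (3.07 CPM, others 1.48 to 1.73 CPM) and at the third Dscaml1 region (2.14 CPM, others 1.19 to 1.27 CPM), and day 21 replicate 3 at the third Sh2d4a region (1.79 CPM, others 1.43 to 1.44 CPM). The other 2 were sums. CPM summed over the 479 regions was 2350 in day 7 replicate 4, against 2570 to 2604 in the other day 7 libraries. The summed level at the ends of cDC2 genes was 167 CPM in day 7 replicate 1, against 172 to 173 CPM in the others. Neither the summed nor the median CPM of the 479 regions in day 21 replicate 1 was flagged, although both were the highest of that day.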

How the results depend on the processing

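The number of regions depends on the thresholds. It was 479 as reported, 71 with a day 21 limit of 1 CPM, 1196 with 3 CPM, 1208 with a day 7 limit of 3 CPM and 102 with 6 CPM, and 427 to 576 with 1 library left out. The share at gene ends was 3.97% with windows of 500 bp, 11.1% with 2000 bp and 11.5% when all annotated genes were used, which gave 51.6% in gene bodies and 36.7% intergenic. With a gap of 50 kb, 119 regions had another nearby, in 52 clusters. Among neighbours, 250 were lower and 24 higher within 5 kb, and 1056 and 422 within 50 kb. With windows of 2000 bp, 73 regions at gene ends were higher.

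Differences of 4 marker sums changed sign. Over all assigned regions the difference in summed CPM, day 21 minus day 7, was −2.88 for B cells, −2.13 for neutrophils, 45.1 for melanoma and −11.1 for stroma; with windows of 2000 bp it was −4.01 for neutrophils and −4.77 for stroma. With 1 library left out it ran from −0.703 to 1.42 for neutrophils, −3.45 to 0.325 for melanoma and −1.0 to 1.52 for stroma. With 1 library left out, the smallest exact permutation p of 3 against 4 libraries is 0.0571, so none could pass an adjusted p of 0.05. With all 8 libraries the smallest is 0.0286, which left little room to pass after adjustment over 10 lists, and none of these 4 passed. The melanoma sums over all assigned regions did not overlap between the days (exact permutation p = 0.0286, adjusted p = 0.0571). With 1 library left out, the log2 fold change of the far Cxcr5 region ran from −0.326 to 0.0633 (above 0 without day 7 replicates 1 or 2 or day 21 replicate 1), and that of an Il4i1 end region from −0.00336 to 0.138 (below 0 without day 21 replicate 4). That of a Klf6 end region was 0.0161 with trended offsets; the cause was not tested. Of 461 values at named gene ends under alternatives, 420 kept their direction and side of the threshold, 29 lost and 7 gained the call, and 5 changed sign. None of 840 values of named regions changed sign, which the rule largely fixed in advance, since it required every day 7 library to lie above every day 21 library. Of these values, 49 moved by more than the standard error of the log2 fold change in the main fit.

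Replicate numbers did not pair the days: correlations of deviations were at most 0.0133 in size. With the replicate block 11873 regions were lower and 11403 higher, against 12017 and 11573, and neighbours within 10 kb gave 379 and 66. Depth limits the single region: a day 21 mean below 2 CPM is a small count, so differences among the 479 regions at day 21 are mostly not resolved.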
